A study of Mus musculus with 9 samples.

Results

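The genes described here are the mouse semaphorins, their plexin and neuropilin receptors, and the collapsin response mediators, 36 genes in all. There are 20 semaphorins, 9 plexins, 2 neuropilins and 5 mediators. These genes were chosen with earlier results of these data known. They were taken by name, using the probe sets that the array's annotation assigns to one of these genes and to no other gene. Of the 36, 35 could be measured, among 16854 measured genes in all. The neuropilin gene Nrp2 could not, because 28 of its 29 probe sets also carry the name Pard3b and the remaining one was dim (log2 signals from 4.86 to 6.56 over the 9 arrays).

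RNA came from the dissected cerebral cortex of E13.5 mouse embryos and was hybridised to Affymetrix Mouse Exon 1.0 ST arrays, which carry probe sets for single exons. There were 9 arrays: 3 from control embryos labelled wild type, 3 from Sfpq+/- embryos with 1 disrupted Sfpq allele, and 3 from Sfpq-/- embryos with both disrupted. Sfpq encodes a nuclear RNA-binding protein. The labels give no strain, Cre driver, deleted exon, sex or litter, and since the protocol for RNA extraction repeats Sfpq+/- and omits Sfpq-/-, the groups rest on the sample titles and genotype fields. Because separate litters are not stated, the p-values measure only the spread between these samples.

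Semaphorins are secreted or membrane-bound guidance proteins that steer growing axons and migrating neurons, and were first known for collapsing growth cones. Most bind plexins directly, while most secreted class 3 members need a neuropilin as a co-receptor, and the plexin then acts through small GTPases, kinases and Mical oxidoreductases on the cytoskeleton. Collapsin response mediators are cytosolic tubulin-binding proteins that relay the signal. In the embryonic cortex the family is known for guiding callosal and corticofugal axons, orienting dendrites and guiding radially migrating neurons.

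The gene level used throughout is the mean log2 signal of a gene's probe sets, so levels are compared between arrays of the same gene and never between genes. Over the 12 of 23 Sfpq probe sets with a mean control signal above 10, the mean log2 signal was 12.07 to 12.12 in controls, 11.87 to 12.08 in Sfpq+/- and 9.99 to 10.31 in Sfpq-/-, so the Sfpq-/- arrays were low and the Sfpq+/- arrays overlapped the controls. At the gene level, over all kept probe sets, the log2 change of Sfpq was -1.15 in Sfpq-/- (SE 0.16, limma adjusted p = 0.000787) and 0.12 in Sfpq+/- (SE 0.16, adjusted p = 0.9). Sfpq RNA therefore bore out the Sfpq-/- label and did not tell the Sfpq+/- group from control. Of 7 measured cortex markers, 3 fell in Sfpq-/- (Eomes, Neurod6 and Neurog2), and the summed log2 level of that list ran from 12.83 to 12.96 there against 13.18 to 13.23 in controls. The sum is over linear signals, so bright markers weigh most. The list was mixed: 4 of the 7 log2 changes were below 0, and they ran from -0.92 to 0.19. In 2 of the 7, every Sfpq-/- array was above every control. Of all genes, 6.12% were called lower and 5.98% higher. Of 8 microglia and macrophage markers, 5 rose (Cx3cr1, C1qb, Tyrobp, Cd68 and P2ry12), and their summed log2 level ran from 11.21 to 11.24 against 10.92 to 10.97. Gad1 was the sole marker of 8 to pass in the ganglionic eminence list, where the log2 changes ran from -0.73 to 0.98. The summed log2 level of that list ran from 11.78 to 12.66 in controls and from 12.12 to 12.24 in Sfpq-/-. Its controls thus spread more widely than those of the cortex and microglia lists. Rgs5 was the sole one of 7 to pass in the endothelial and pericyte list. Of the meningeal markers 0 of 8 passed, and of the midbrain, hindbrain and spinal cord markers 0 of 6. The log2 signal of Xist, which is expressed in females, was above 11 in 2 controls, in 0 Sfpq+/- and in 1 Sfpq-/- sample. The part of these differences in the results that follow was not tested, apart from a fit with Xist as a covariate.

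In Sfpq-/- cortex, 8 of the 35 genes fell and 7 rose against control, by limma with an adjusted p below 0.05 over all genes. The 8 that fell were 6 ligands (Sema5a, Sema5b, Sema3a, Sema6d, Sema3e and Sema7a) and the receptors Plxna4 and Plxna2. The 7 that rose were the ligands Sema6a, Sema3f and Sema4b, the receptors Plxnc1 and Plxna1, and the mediators Dpysl4 and Dpysl3. Of all genes, 12.1% passed, 6.12% lower and 5.98% higher, against 42.9% of these 35. The median log2 change of the 35 was 0.01 and that of all genes 0.03. The shares in both directions were above those of all genes, while the middle of the set was not shifted. Because the genes were chosen with earlier results of these data known, these shares only describe the chosen genes. They cannot test whether the family changed more often than other genes. The same limit applies to the later comparisons of family or partner genes with all genes. In whole tissue, fewer cells of a type and less RNA per cell cannot be told apart.

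**Figure D1:**
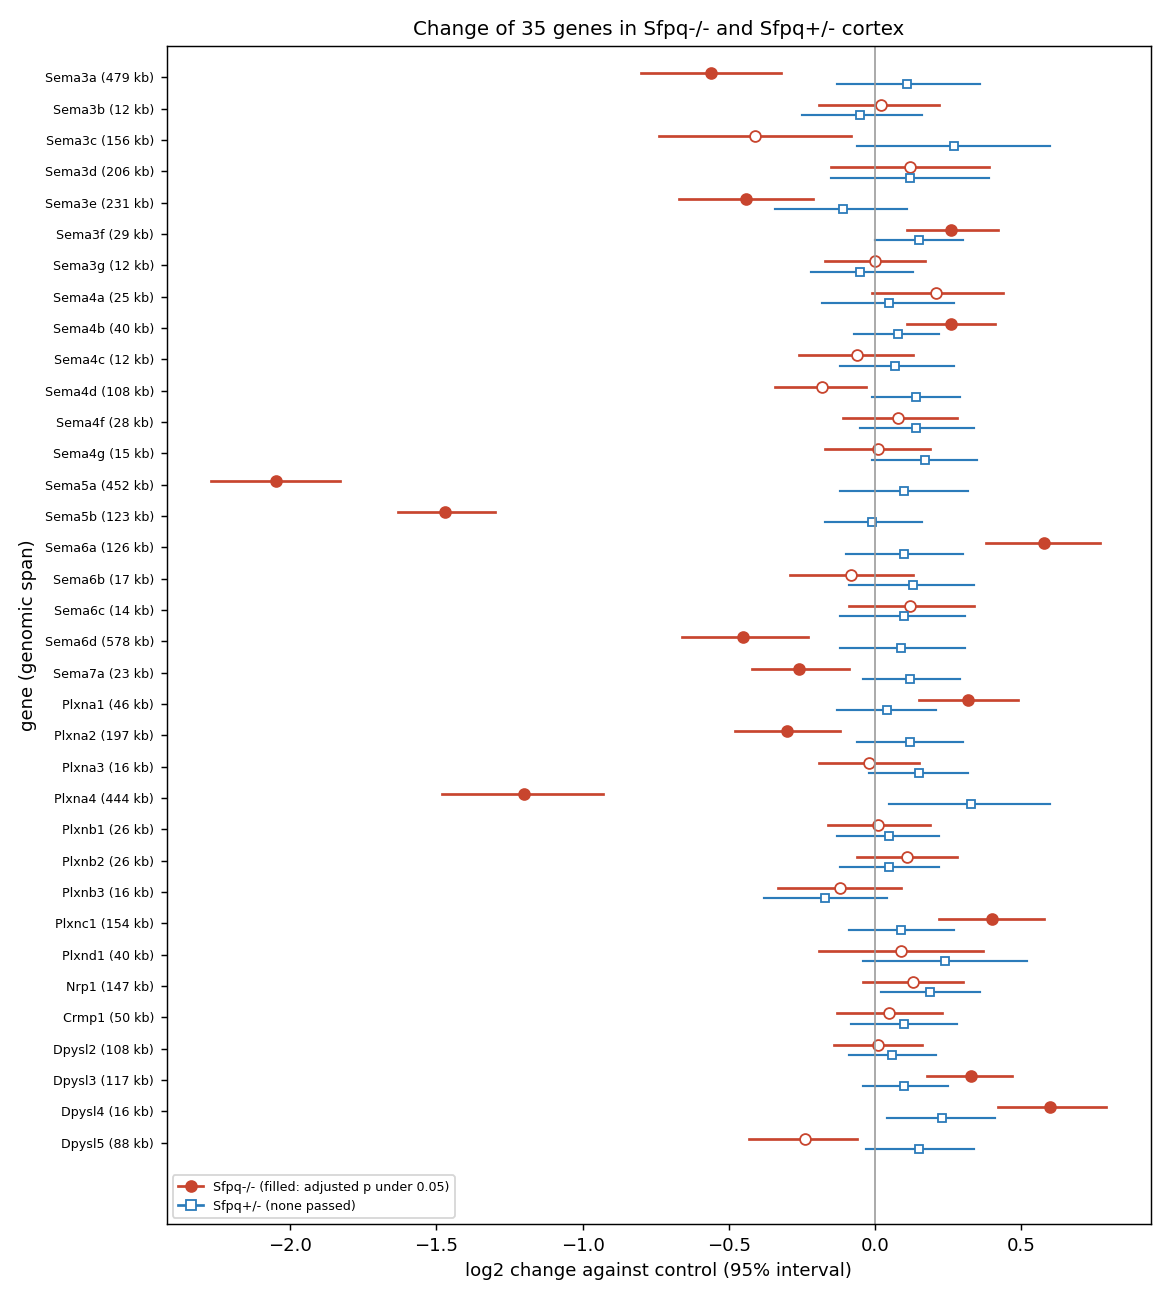
Log2 change against control (x axis) of the 35 measured genes (y axis, with genomic span in kb) in Sfpq-/- (red circles, filled where the adjusted p was under 0.05) and Sfpq+/- (blue squares); bars are 95% intervals, with 3 arrays a group. Sema5a, Sema5b and Plxna4 lie farthest to the left in Sfpq-/-, at -2.05, -1.47 and -1.20, while no Sfpq+/- value passed.

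The class 5 semaphorins, transmembrane ligands with thrombospondin repeats that are known to repel neurites, had the largest changes of the family. The log2 level of Sema5a was 10.11, 9.99 and 10.07 in the 3 controls, 10.16, 10.19 and 10.11 in Sfpq+/-, and 7.94, 8.24 and 7.83 in Sfpq-/-. Every Sfpq-/- array was thus well below every other array. The mean was 10.05 ± 0.06 (SD, n = 3) in control and 8.00 ± 0.21 in Sfpq-/-, a 4.14-fold fall (log2 change -2.05, SE 0.10, limma adjusted p = 1.1e-06), which placed Sema5a at rank 12 of 16854 genes counted from the largest fall. Sema5b read 9.49, 9.42 and 9.49 in controls, 9.48, 9.43 and 9.47 in Sfpq+/-, and 7.99, 8.11 and 7.89 in Sfpq-/-. Its control and Sfpq+/- arrays overlapped almost completely, and the Sfpq-/- arrays stood apart below them. The fall was 2.76-fold (log2 change -1.47, SE 0.08, limma adjusted p = 1.1e-06) and ranked 43. Both calls held under all 15 alternative settings.

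The probe sets within these genes showed how evenly the falls were spread. All 47 kept probe sets of Sema5a had a negative log2 change and 41 passed on their own. Of 31 kept for Sema5b, 25 passed, all lower. To set aside dim probe sets, which cannot fall far, the values were also read over those with a mean log2 signal above 9, a limit chosen after the values were seen. In Sema5a 32 such probe sets changed by -2.71 to -1.13 with a median of -2.37, and in Sema5b 17 changed by -2.41 to -0.76 with a median of -1.74. In Sema5b, 7 of the 17 fell below -2 and 3 stayed above -1, a wider spread than the gene level shows. The positions of the probe sets along the genes were not used here.

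The promoter windows of Sema5a and Sema5b are shown because these genes had the largest falls, and those of Plxnc1 and Sema7a because they are a receptor and its ligand that changed in opposite directions. Each is the RefSeq window of GRCm38.p6 from 250 bases before to 50 bases after the annotated start, read 5′ to 3′ on the gene's own strand, with every CG dinucleotide in capitals. The windows lie at chr15:32244563-32244862 (plus strand) for Sema5a, chr16:35541112-35541411 (plus) for Sema5b, chr10:94944796-94945095 (minus) for Plxnc1 and chr9:57939862-57940161 (plus) for Sema7a.
Sema5a: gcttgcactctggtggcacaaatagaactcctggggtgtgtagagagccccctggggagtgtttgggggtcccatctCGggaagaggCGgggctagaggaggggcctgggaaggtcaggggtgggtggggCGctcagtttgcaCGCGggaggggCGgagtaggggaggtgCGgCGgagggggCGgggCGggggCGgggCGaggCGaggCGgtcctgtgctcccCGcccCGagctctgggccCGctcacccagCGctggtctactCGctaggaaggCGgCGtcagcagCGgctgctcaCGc
Sema5b: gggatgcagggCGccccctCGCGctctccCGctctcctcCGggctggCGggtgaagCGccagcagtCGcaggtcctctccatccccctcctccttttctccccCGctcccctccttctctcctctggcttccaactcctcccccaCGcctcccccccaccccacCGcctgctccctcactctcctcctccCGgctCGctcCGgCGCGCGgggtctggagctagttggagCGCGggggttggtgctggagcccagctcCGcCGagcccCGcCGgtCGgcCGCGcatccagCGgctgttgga
Plxnc1: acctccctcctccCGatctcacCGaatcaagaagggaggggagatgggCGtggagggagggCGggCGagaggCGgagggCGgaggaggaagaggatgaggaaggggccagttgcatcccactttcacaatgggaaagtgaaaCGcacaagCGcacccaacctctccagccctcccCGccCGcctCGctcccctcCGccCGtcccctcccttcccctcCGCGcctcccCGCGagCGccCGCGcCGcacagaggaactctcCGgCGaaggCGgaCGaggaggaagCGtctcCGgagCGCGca
Sema7a: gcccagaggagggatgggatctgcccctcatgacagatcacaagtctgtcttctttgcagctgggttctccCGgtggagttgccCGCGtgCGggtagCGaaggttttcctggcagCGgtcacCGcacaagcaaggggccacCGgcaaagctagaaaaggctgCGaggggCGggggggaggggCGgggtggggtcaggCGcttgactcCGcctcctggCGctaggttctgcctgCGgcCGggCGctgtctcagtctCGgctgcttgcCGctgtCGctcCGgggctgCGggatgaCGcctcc
These windows hold 23, 27, 30 and 23 CG dinucleotides in that order, against a median of 7 over all 32851 windows of the same length, and their GC content is 71.3%, 73.0%, 69.0% and 67.3%. At least 20 CG were found in 26.5% of all windows and in 18 of the 40 windows of the 28 family genes that have one. The letters TATAAA, searched on both strands, were in 13.6% of all windows and 0 of the 40. The letters CAGATG, also on both strands, were in 17.2% of all windows and in 2 of the 40, one of Sema3c and one of Sema4a. Richness in CG was not shared by all the genes that fell. The window of Plxna2 holds 25 CG, but those of Sema3a and Sema3e hold 2 and 11, and the 2 windows of Sema6d hold 14 and 6. Plxna4 has no window. These counts say nothing about which factors bind there.

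Among the 7 class 3 semaphorins, the secreted ligands, 2 fell, 1 rose and 4 did not pass. Sema3a, a repellent for cortical axons that also orients apical dendrites, read 9.54, 9.47 and 9.49 in controls, 9.71, 9.62 and 9.52 in Sfpq+/-, and 8.83, 9.22 and 8.78 in Sfpq-/-. The groups did not overlap, although Sfpq-/- replicate 2 lay closer to the controls than the other two did. The fall was 1.47-fold (log2 change -0.56, SE 0.11, limma adjusted p = 0.00646). Sema3e, which binds Plxnd1 without a neuropilin, was dim throughout, at 6.92, 6.92 and 6.90 in controls, 6.89, 6.55 and 6.96 in Sfpq+/-, and 6.53, 6.39 and 6.50 in Sfpq-/-. One Sfpq+/- array reached down to the level of the Sfpq-/- arrays. Its log2 change against control was -0.44 (SE 0.10, limma adjusted p = 0.0171). That call depended on the dim probe sets, since with a stricter limit on dim signals the change was -0.06 (adjusted p = 0.707), and it was also lost without control replicate 2 (0.0617) or Sfpq-/- replicate 2 (0.054).

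Sema3f, a ligand for Nrp2 that repels axons, rose by a small amount. It read 8.09, 8.13 and 8.20 in controls, 8.29, 8.23 and 8.34 in Sfpq+/-, and 8.42, 8.39 and 8.40 in Sfpq-/-. The 3 groups followed one another without overlap, with Sfpq+/- in between, although the Sfpq+/- change against control did not pass. The share of all genes in such an order is not given here. The log2 change in Sfpq-/- was 0.26 (SE 0.07, limma adjusted p = 0.0279), a call that was lost without control replicate 1 (0.0942), control replicate 2 (0.104) or Sfpq-/- replicate 1 (0.101) and with Xist as a covariate (0.0604). Since Nrp2 was not measured, the receptor side of this pair is missing.

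Sema3c, an attractant for cortical axons, did not pass against control. It read 8.49, 8.35 and 8.33 in controls, 8.69, 8.81 and 8.47 in Sfpq+/-, and 7.94, 8.33 and 7.66 in Sfpq-/-. Sfpq-/- replicate 2, at 8.33, came within rounding of the lowest control while the other 2 Sfpq-/- arrays were clearly lower. The log2 change was -0.41 (SE 0.15, limma adjusted p = 0.111), and without that array it was -0.59 (adjusted p = 0.011). The remaining class 3 ligands had log2 changes of 0.02 (Sema3b), 0.12 (Sema3d) and 0.00 (Sema3g), each with an interval that included 0.

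The class 4 semaphorins, transmembrane ligands that bind mainly B-type plexins, changed little. Of 6, only Sema4b passed: it read 9.35, 9.31 and 9.32 in controls, 9.45, 9.37 and 9.40 in Sfpq+/-, and 9.60, 9.62 and 9.54 in Sfpq-/-. The Sfpq-/- arrays were above all others, while the highest control and the lowest Sfpq+/- array nearly met. The log2 change was 0.26 (SE 0.07, limma adjusted p = 0.0273), and the call was lost without any single control array (0.0605 to 0.11) and without Sfpq-/- replicate 1 (0.099) or 2 (0.0581). Sema4d, the ligand of Plxnb1, read 8.79, 8.76 and 8.76 in controls, 8.98, 8.92 and 8.83 in Sfpq+/-, and 8.62, 8.59 and 8.55 in Sfpq-/-, lowest in Sfpq-/- without overlap. Its log2 change of -0.18 did not pass (SE 0.07, limma adjusted p = 0.127). Sema4a had a log2 change of 0.21 (adjusted p = 0.238), and Sema4c, Sema4f and Sema4g lay between -0.06 and 0.08.

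One Sema4d probe set, picked out after the values were seen, went against the rest of its gene. It read 6.62, 6.09 and 5.68 in controls, 6.68, 6.50 and 6.40 in Sfpq+/-, and 7.96, 7.60 and 7.23 in Sfpq-/-, a log2 change of 1.47 (limma adjusted p = 0.0206 over all kept probe sets). Every Sfpq-/- array was above every other array. The other 25 kept Sema4d probe sets had a median log2 change of -0.30, with 21 of them below 0, so the gene level averages over probe sets that moved apart.

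The class 6 semaphorins are transmembrane ligands for A-type plexins, and the pair that passed went in opposite directions. Sema6a, which binds Plxna2 and Plxna4, read 9.81, 9.86 and 9.73 in controls, 10.03, 9.87 and 9.81 in Sfpq+/-, and 10.27, 10.52 and 10.34 in Sfpq-/-. All Sfpq-/- arrays were higher than all others, and the rise was 1.49-fold (log2 change 0.58, SE 0.09, limma adjusted p = 0.00147). Sema6d, a ligand of Plxna1, read 9.70, 9.69 and 9.72 in controls, 9.98, 9.72 and 9.69 in Sfpq+/-, and 9.11, 9.39 and 9.27 in Sfpq-/-. The controls were tightly grouped and the Sfpq-/- arrays lay below them with a wider spread. The fall was 1.36-fold (log2 change -0.45, SE 0.10, limma adjusted p = 0.0112), and the call was lost without Sfpq-/- replicate 1 (0.0582). Sema6b and Sema6c did not pass, with log2 changes of -0.08 and 0.12.

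Sema7a, a lipid-anchored ligand of Plxnc1 and of integrins that promotes axon growth, fell by a small amount at the edge of the threshold. It read 9.12, 9.09 and 9.09 in controls, 9.24, 9.32 and 9.11 in Sfpq+/-, and 8.91, 8.83 and 8.80 in Sfpq-/-. The Sfpq-/- arrays were the lowest without overlap. The log2 change was -0.26 (SE 0.08, limma adjusted p = 0.04998), and leaving out any one of the 6 arrays compared ended the call (0.0842 to 0.136), as did Xist as a covariate (0.0996).

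**Figure D2:**
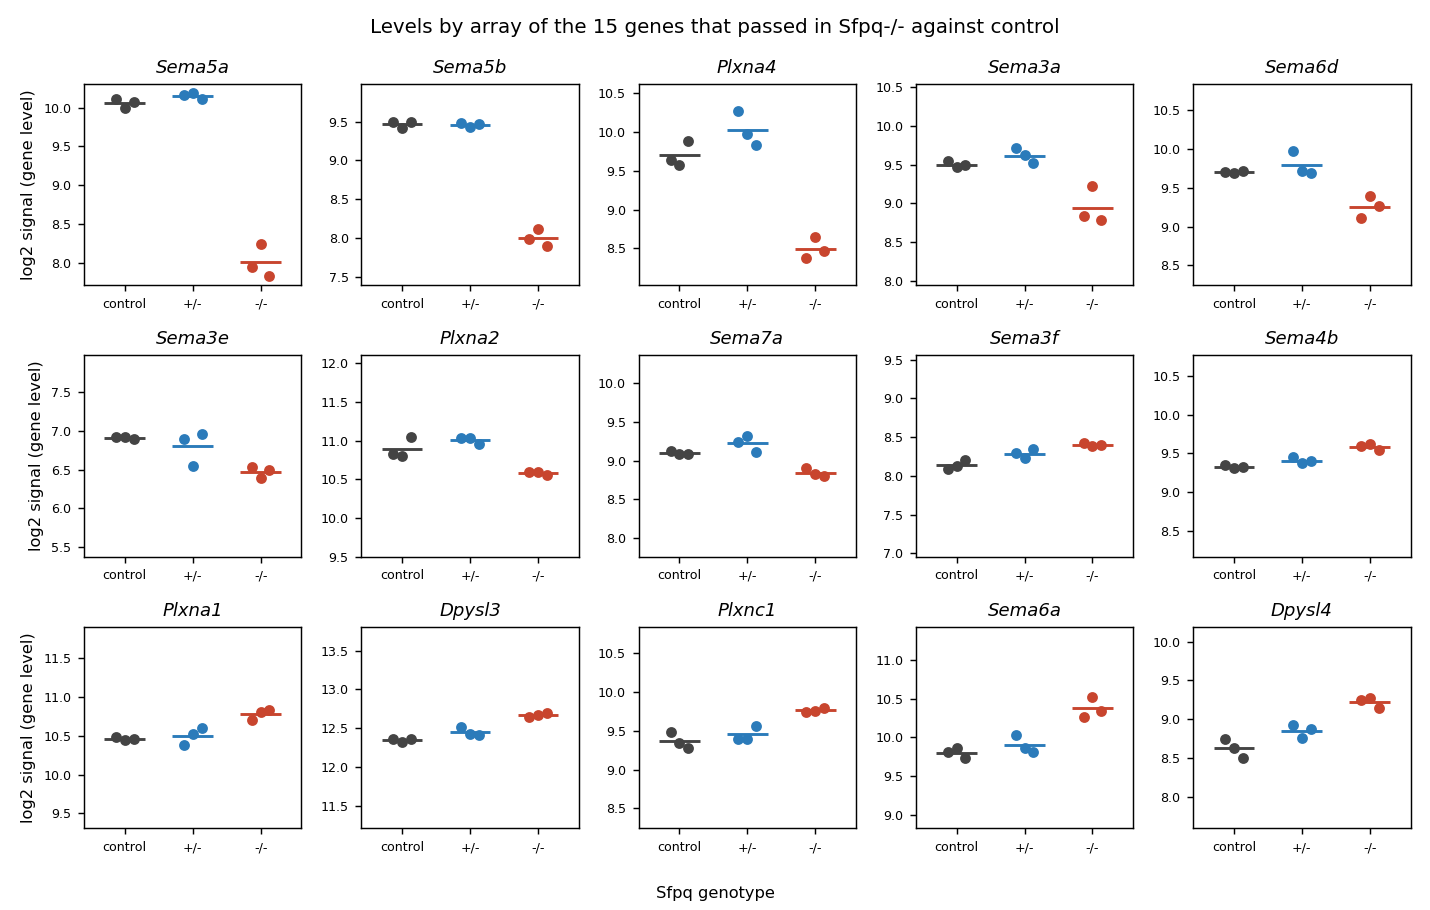
Log2 gene level (y axis, same length of scale in each panel) of the 15 genes that passed in Sfpq-/- against control, by genotype (x axis); each point is 1 array and each bar the mean of 3. The control and Sfpq+/- points of Sema5a, Sema5b and Plxna4 sit together well above the Sfpq-/- points, and the genes in the last row, from Plxna1 to Dpysl4, are highest in Sfpq-/-.

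Of the 9 plexins, 2 fell, 2 rose and 5 did not pass, and all changes beyond the threshold were in A-type plexins or Plxnc1. Plxna4, a receptor for class 3 semaphorins with neuropilins and directly for Sema6a, read 9.64, 9.58 and 9.88 in controls, 10.27, 9.97 and 9.83 in Sfpq+/-, and 8.38, 8.65 and 8.46 in Sfpq-/-. The Sfpq-/- arrays were far below, and the Sfpq+/- arrays overlapped the upper part of the controls. The fall was 2.30-fold (log2 change -1.20, SE 0.13, limma adjusted p = 9.37e-05) and ranked 92 of all genes. Of its 43 kept probe sets 32 passed, all lower, and the 30 with a mean log2 signal above 9 changed by -1.79 to -0.49 with a median of -1.36. Plxna2, the other receptor of Sema6a, read 10.82, 10.80 and 11.04 in controls, 11.03, 11.03 and 10.95 in Sfpq+/-, and 10.59, 10.60 and 10.56 in Sfpq-/-. Its Sfpq-/- arrays were nearly equal to each other and below the rest. The log2 change was -0.30 (SE 0.08, limma adjusted p = 0.033). That call was lost without control replicate 2 (0.0529), control replicate 3 (0.119), or any one Sfpq-/- array (0.0576 to 0.0986). Both receptors of Sema6a were therefore lower in the arrays in which Sema6a itself was higher.

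Plxna1, a receptor for class 3 semaphorins and for Sema6d, read 10.48, 10.45 and 10.46 in controls, 10.38, 10.53 and 10.60 in Sfpq+/-, and 10.70, 10.81 and 10.83 in Sfpq-/-. The Sfpq-/- arrays were the highest without overlap. The log2 change was 0.32 (SE 0.08, limma adjusted p = 0.0219), and the call was lost without any single control array (0.0531 to 0.0845) or Sfpq-/- replicate 2 (0.0516) and with Xist as a covariate (0.05047). Plxnc1, the receptor of Sema7a, read 9.49, 9.34 and 9.28 in controls, 9.40, 9.40 and 9.56 in Sfpq+/-, and 9.74, 9.76 and 9.80 in Sfpq-/-. The control and Sfpq+/- arrays overlapped, and the Sfpq-/- arrays formed a tight group above both. The log2 change was 0.40 (SE 0.08, limma adjusted p = 0.00773), which held under all 15 alternative settings. The receptor of the Sema7a pair was thus higher where its ligand was lower, but the call of Sema7a was lost without any one of the 6 arrays compared. Sema6d and Plxna1 also moved in opposite directions. Other pairs did not, since Sema3a and Plxna4 both fell, and Sema3e fell while Plxnd1 did not pass.

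The other plexins were close to control. Plxna3, which carries class 3 signals with Nrp2, had a log2 change of -0.02. The B-type plexins, receptors of class 4 semaphorins that act on the small GTPase RhoA, had log2 changes of 0.01 (Plxnb1), 0.11 (Plxnb2) and -0.12 (Plxnb3), and Plxnd1, the Sema3e receptor, 0.09. The widest of these 5 intervals was that of Plxnd1, from -0.19 to 0.37. Nrp1, the co-receptor of Sema3a, read 9.57, 9.48 and 9.57 in controls, 9.65, 9.80 and 9.74 in Sfpq+/-, and 9.61, 9.76 and 9.64 in Sfpq-/-. Both mutant groups lay above the controls, and the change in Sfpq-/- of 0.13 did not pass (SE 0.08, limma adjusted p = 0.335).

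Of the 5 collapsin response mediators, 2 rose and 0 fell. Dpysl4, a tubulin-binding mediator, read 8.74, 8.63 and 8.50 in controls, 8.92, 8.76 and 8.88 in Sfpq+/-, and 9.25, 9.28 and 9.15 in Sfpq-/-. The 3 groups followed one another without overlap. The rise in Sfpq-/- was 1.52-fold (log2 change 0.60, SE 0.08, limma adjusted p = 0.000695), the largest rise of the family. Dpysl3, a mediator found in newborn neurons and growth cones, read 12.36, 12.32 and 12.36 in controls, 12.51, 12.42 and 12.41 in Sfpq+/-, and 12.65, 12.67 and 12.69 in Sfpq-/-. The spread within each group was very small and the groups were again in that order. For both Dpysl4 and Dpysl3 the Sfpq+/- change against control did not pass. The log2 change in Sfpq-/- was 0.33 (SE 0.07, limma adjusted p = 0.00812), and both of these calls held under all 15 alternative settings.

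Dpysl5, a mediator of immature neurons, read 10.89, 10.79 and 10.76 in controls, 11.11, 10.94 and 10.84 in Sfpq+/-, and 10.62, 10.54 and 10.56 in Sfpq-/-. It was lowest in Sfpq-/- without overlap, but its log2 change of -0.24 did not pass (SE 0.08, limma adjusted p = 0.0972). Crmp1 and Dpysl2, the mediator first linked to Sema3a signalling, had log2 changes of 0.05 and 0.01, with intervals from -0.13 to 0.23 and from -0.14 to 0.16.

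Counting arrays alone, 11 of the 35 genes had all Sfpq-/- arrays below all controls and 8 had all of them above, where 10.8% of all genes were below and 16.1% above in the same way. Of the 8 genes that fell, 6 had their highest Sfpq-/- value on replicate 2 and 2 on replicate 1. Replicate 2 was also the Sfpq-/- array with the most remaining signal over the bright Sfpq probe sets, at 10.31 against 10.08 and 9.99. The same count over all genes is not given here, and the part of that difference in the values above was not tested. The 7 genes that rose had their highest value on replicate 1, 2 and 3 in 1, 3 and 3 cases.

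Set side by side by length, the long genes held most of the falls. Spans were taken from RefSeq, and a gene of at least 100 kb was called long. Of 15 long genes of the family 7 fell and 3 rose, and of 20 short ones 1 fell (Sema7a, 23.3 kb) and 4 rose (Dpysl4, Plxna1, Sema3f and Sema4b). Of all long genes 27.0% fell and 5.90% rose, against 2.83% and 6.02% of all short genes. The median log2 change was -0.30 for the long and 0.03 for the short genes of the family, beside -0.07 and 0.04 for all long and all short genes. Of the 6 family genes of 200 kb or more, 5 fell (Sema6d at 577.8 kb, Sema3a at 478.7 kb, Sema5a at 451.5 kb, Plxna4 at 443.6 kb and Sema3e at 231.4 kb), where 42.6% of all genes of that length fell. The exception was Sema3d, at 205.8 kb, with a log2 change of 0.12. Between 100 and 200 kb the family was mixed: of 9 genes, Sema5b and Plxna2 fell and Sema6a, Plxnc1 and Dpysl3 rose, where 16.2% of all genes of that length fell and 7.49% rose. The calls of Sema3e, Sema6d, Sema7a, Plxna2, Plxna1, Sema3f and Sema4b in these counts were each lost under some alternative settings. For Sema3e the stricter limit on dim signals left a log2 change of -0.06.

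**Figure D3:**
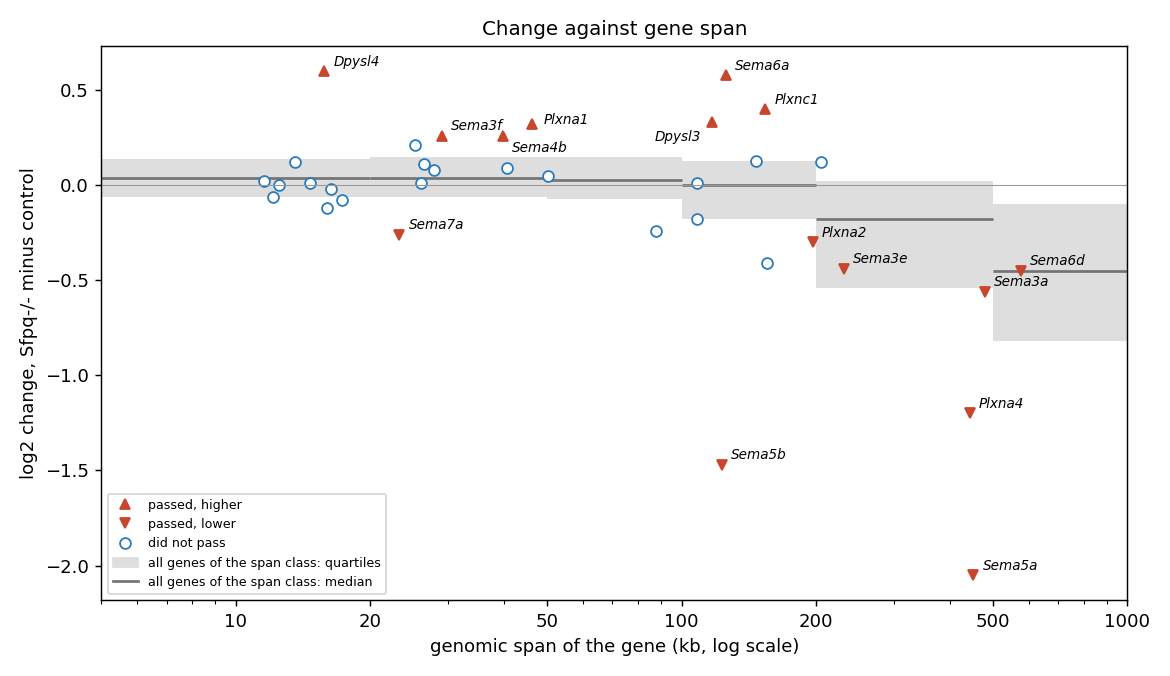
Log2 change of Sfpq-/- against control (y axis) and genomic span in kb (x axis, log scale) of the 35 genes, as triangles where they passed and open circles where they did not; grey boxes and lines are the quartiles and median of all genes in each span class. The longest genes lie below 0, Sema5a and Sema5b lie far under the box of their class, and Sema6a, Plxnc1 and Dpysl3 lie above theirs.

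Length alone did not order the changes. Sema6d, the longest, changed by -0.45, much less than Sema5a at -2.05, and Sema5b, at 123.1 kb, fell more than Plxna4, Sema3a, Sema3e and Sema6d, all of which are longer. Sema6a has nearly the same span as Sema5b, at 125.9 kb, and rose by 0.58. Across the 35 genes Spearman's rho between span and change was -0.32, and across 16707 genes with a span it was -0.12. Both are descriptions, since all genes share the same 9 arrays.

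Over single probe sets, 103 of the 988 kept for the family were lower in Sfpq-/- than in control and 7 were higher, beside 1.19% and 0.561% of all 628415 kept probe sets. Sema5a, Sema5b and Plxna4 supplied 98 of the 103. The other genes that passed at the gene level had few or no probe sets that passed singly.

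**Figure D4:**
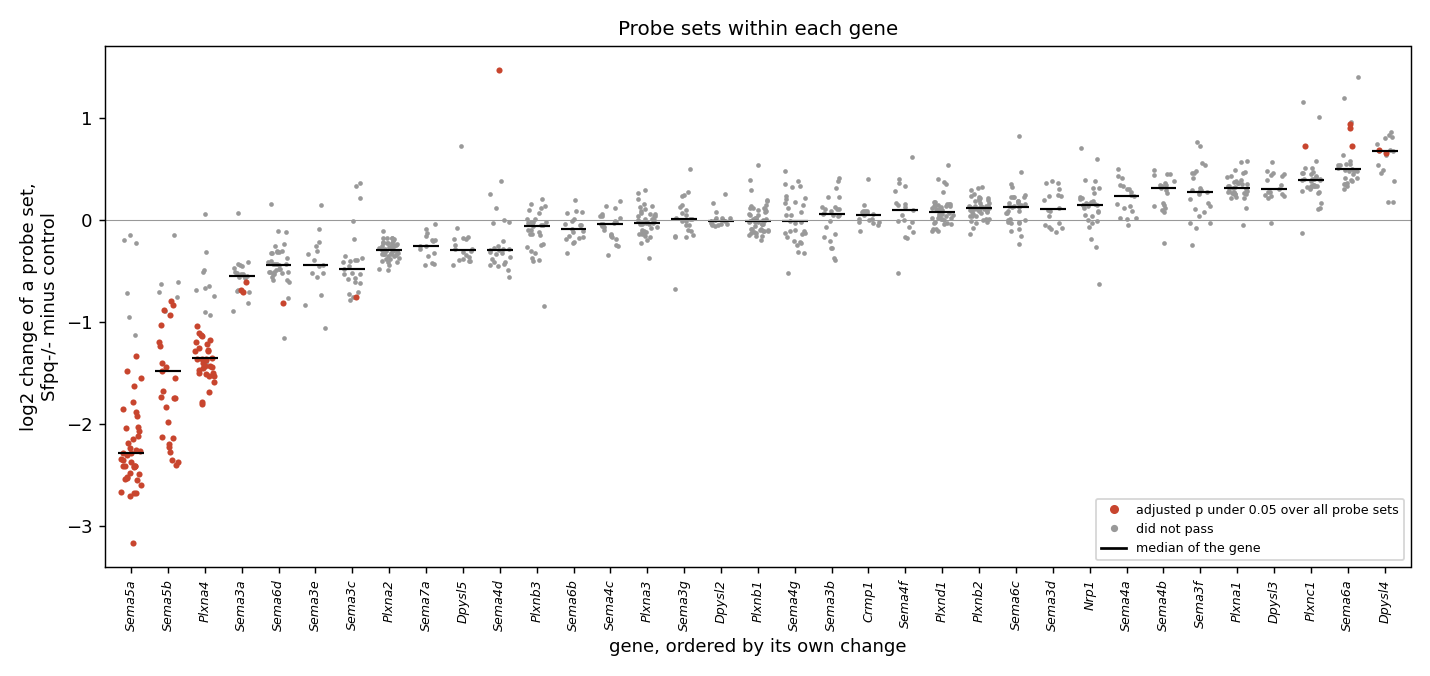
Log2 change of each kept probe set in Sfpq-/- against control (y axis) by gene (x axis, ordered by the gene's own change); red points passed with an adjusted p under 0.05 over all kept probe sets, and black bars are medians. The red points crowd in Sema5a, Sema5b and Plxna4, and a lone red point at 1.47 stands above the other Sema4d probe sets.

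In Sfpq+/- cortex, where Sfpq RNA itself was not called lower, 0 of the 35 genes passed against control by limma, as did 0% of all genes. At an unadjusted p under 0.05 there were 3 (Dpysl4, Nrp1 and Plxna4), against 715 of 16854 over all genes. The log2 changes ran from -0.17 to 0.33, with adjusted p-values from 0.886 to 0.987. Above 0 were 30 of the 35, where 61.2% of all genes and 71.1% of all long genes were above 0. Of the 35 genes 9 had every Sfpq+/- array above every control and 0 had every one below, where 8.52% and 3.99% of all genes did: Sema3f, Sema4b, Sema4d, Sema4g, Sema5a, Plxna3, Nrp1, Dpysl3 and Dpysl4. The 2 of these not yet given are Sema4g, at 7.69, 7.74 and 7.67 in controls and 8.01, 7.83 and 7.77 in Sfpq+/-, and Plxna3, at 9.33, 9.24 and 9.39 in controls and 9.44, 9.47 and 9.50 in Sfpq+/-. For Sema5a the separation was within rounding, since the lowest Sfpq+/- array and the highest control both read 10.11. For 32 of the 35 genes the 95% interval lay within 0.5 of 0 on the log2 scale, and the outermost bounds were -0.38 for Plxnb3 and 0.60 for Plxna4. Taken singly, the intervals thus stopped well short of the falls of Sema5a, Sema5b and Plxna4 in Sfpq-/-. They measure only the spread between these samples, make no allowance for the number of genes, and do not show that the levels are equal.

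Sfpq-/- was also set against Sfpq+/-, a comparison that uses the same Sfpq-/- arrays as before and is given beside it for that reason. Here 10 of the 35 genes were lower and 4 higher, by limma at the same threshold, where 7.25% of all genes were lower and 4.58% higher. Sema5a (log2 change -2.15), Plxna4 (-1.53) and Sema5b (-1.46) again had the largest falls, beside -2.05, -1.20 and -1.47 against control. Sema3a (-0.67), Sema6d (-0.54), Plxna2 (-0.42) and Sema7a (-0.38) were lower as well. Sema3c (-0.68), Dpysl5 (-0.39) and Sema4d (-0.32), which had not passed against control, passed here. Their Sfpq+/- arrays were mostly above the controls, and the calls of Sema3c and Sema4d were lost without 1 Sfpq+/- array (adjusted p = 0.0562 without replicate 2 and 0.0519 without replicate 1). Higher than in Sfpq+/- were Sema6a (0.47), Dpysl4 (0.37), Plxnc1 (0.31) and Plxna1 (0.28), of which only Sema6a kept its call with each array left out in turn. Dpysl4 lost its call without Sfpq-/- replicate 1 (0.0565) or Sfpq+/- replicate 2 (0.0658), and Plxnc1 without replicate 1 or 3 of Sfpq-/- or replicate 1 or 2 of Sfpq+/- (0.0649 to 0.116). Plxna1 lost its call without any one of the 6 arrays compared except Sfpq+/- replicate 3 (0.0616 to 0.179). Of the long genes 8 of 15 were lower and 2 higher, and of the short ones 2 of 20 were lower and 2 higher. Over all genes, 30.6% of the long were lower and 4.17% higher, and 3.57% of the short were lower and 4.66% higher.

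The genes that act with semaphorin receptors were taken from a separate list of 49 partners, of which 45 were measured and Timd2, Rhod, Rock2 and Pak1 were not. In Sfpq-/- against control 5 fell and 6 rose, beside 6.12% and 5.98% of all genes. The exchange factor Farp1, which binds A-type plexins and activates small GTPases, read 9.44, 9.55 and 9.51 in controls, 9.65, 9.44 and 9.58 in Sfpq+/-, and 8.32, 8.73 and 8.32 in Sfpq-/-. It stood apart in Sfpq-/- alone, with a 2.06-fold fall (log2 change -1.04, SE 0.11, limma adjusted p = 0.000111), and it is long, at 248.6 kb. Rnd1, a small GTPase that binds plexins and has a span of only 8.3 kb, read 8.07, 8.01 and 7.90 in controls, 8.03, 8.08 and 7.91 in Sfpq+/-, and 7.07, 7.11 and 7.13 in Sfpq-/-. Its fall was 1.85-fold with hardly any spread in Sfpq-/- (log2 change -0.89, SE 0.08, limma adjusted p = 2.2e-05). The kinase Fyn, which relays Sema3a signals and spans 195.6 kb, read 11.36, 11.36 and 11.41 in controls, 11.47, 11.29 and 11.41 in Sfpq+/-, and 10.49, 10.79 and 10.83 in Sfpq-/-. It fell 1.59-fold without overlap (log2 change -0.67, SE 0.10, limma adjusted p = 0.000817).

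The other partners that passed changed less. The adhesion molecule Nrcam, a co-receptor partner of neuropilins, fell by 0.34 on the log2 scale (limma adjusted p = 0.0403), and Mras, a small GTPase, by 0.31 (0.0409). Mical3, of the oxidoreductase family through which plexins act on actin, rose by 0.43 (0.0019). L1cam, an adhesion molecule in the Sema3a receptor complex, rose by 0.36 (0.0223), Rnd3, a small GTPase, by 0.40 (0.0371), the cofilin kinase Limk1 by 0.32 (0.0187), and the adaptor Ranbp9 by 0.26 (0.0257). Mical2 rose by 0.27 (0.0443) and is named although it falls outside the 10 partners with the smallest adjusted p. With the stricter limit on dim signals its change was 0.13 (0.34), and its call was lost under 11 of the 15 alternatives, 5 of them single arrays left out (each control array and Sfpq-/- replicates 1 and 3). Farp1, Rnd1, Fyn and Mical3 kept these calls under all 15 alternative settings, and the other 7 all lost theirs without control replicate 2, with adjusted p-values from 0.055 to 0.152. In Sfpq+/- 0 of the 45 partners passed by limma. Against Sfpq+/-, 7 partners were lower in Sfpq-/- and 3 higher, Farp1 (-1.10), Rnd1 (-0.90) and Fyn (-0.69) being the lowest.

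**Figure D5:**
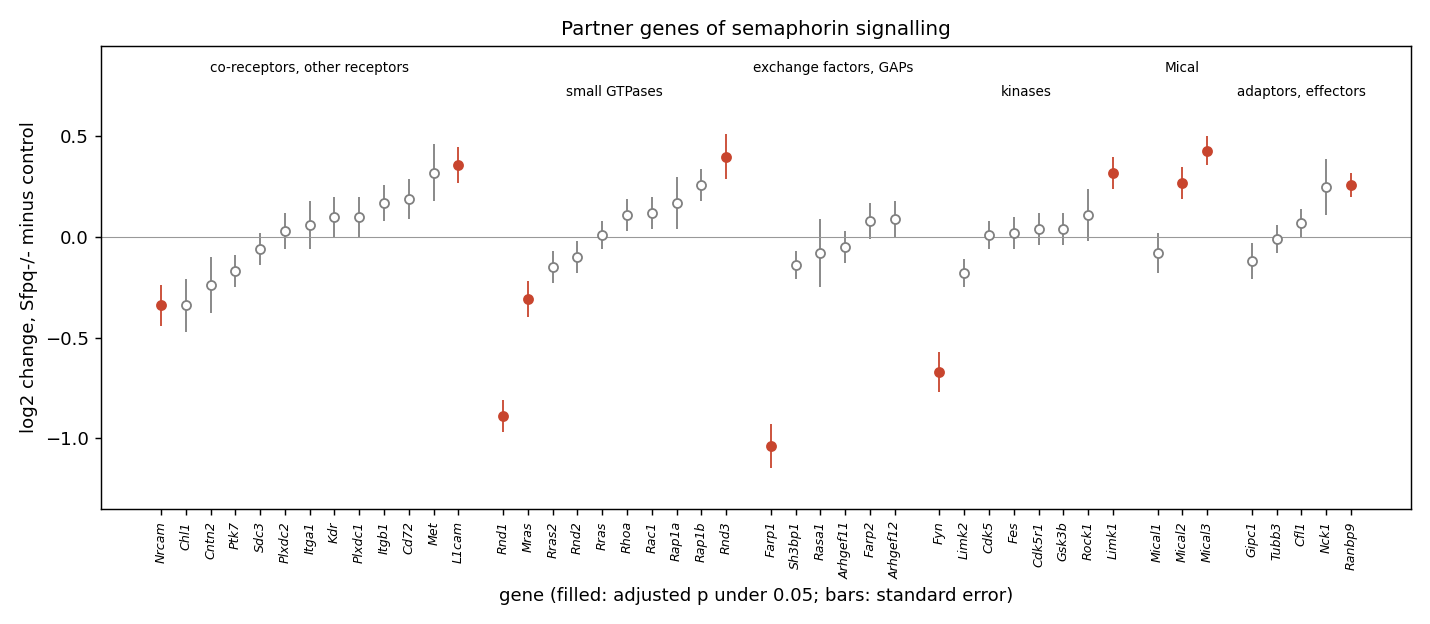
Log2 change of Sfpq-/- against control (y axis) of the 45 measured partner genes (x axis), grouped by role; filled points passed with an adjusted p under 0.05 and bars are standard errors. Farp1, Rnd1 and Fyn lie lowest, at -1.04, -0.89 and -0.67, and most other partners lie near 0.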

How the data were processed

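The authors deposited log2 signals per probe set for 9 arrays, for which the submitters' processing notes name Affymetrix Expression Console (version 1.2.0.20) and the design text the Exon Array Computational Tool. The sources used here do not give the background correction or normalization. The log2 unit follows from the values alone, and array medians were 5.65 to 5.70, so no further normalization was applied. The number of arrays limits the precision: the median standard error of a difference was 0.096.

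Gene names came from the platform annotation: of 1256831 probe sets, 318760 (25.4%) had 1 gene symbol, 6684 several and 931387 none. Symbols were updated through RefSeq where unique; all 36 family genes were found under current symbols, with 1069 probe sets, of which 988 were kept. A probe set was kept if its mean signal across the 9 arrays exceeded 5.64, the median of such means, and a gene needed at least 3 kept probe sets. The gene level was their mean. Differences between probe sets of a gene can reflect exon use as well as level. Spans and promoter windows are from RefSeq GRCm38.p6, matched by symbol, and 28 of the 36 genes had a window.

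One model with 3 group means was fitted over all 16854 genes, and another over 628415 probe sets, in limma 3.58.1 (R 4.3.3; lmFit, eBayes, Benjamini-Hochberg, threshold 0.05). The fits were also run on simulated data with independent noise and no structure shared between arrays. Their outcome is not given here, and they cannot speak to such structure. The genes and lists were chosen with earlier results of these data known. Array values are given for family genes that passed or did not overlap between groups (in each comparison the 16 with the largest change), and for partners the 10 with the smallest adjusted p are named. Alternatives were no filter, a stricter filter (7.33), the median of probe sets, quantile normalization, only the groups compared, the replicate number as a block, array weights, Xist as a covariate, an intensity trend, and leaving out each array.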

Additional observations from a re-analysis of the deposited data

How the results depend on the processing

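All values here are counts of genes called by limma, or adjusted p-values, under 15 alternatives for each comparison, and no call reversed its direction. For the family in Sfpq-/- against control, the single-gene results that were not called in either fit or kept their call numbered 473, while 41 lost and 11 gained a call. Sema3a, Sema5a, Sema5b, Sema6a, Plxna4, Plxnc1, Dpysl3 and Dpysl4 kept their call in all 15. With the median of probe sets, 4 genes were higher in place of 7, with Sema6d (0.0616), Plxna2 (0.129), Plxna1 (0.0625), Sema3f (0.315) and Sema4b (0.162) not passing and Sema3c (0.00455) and Dpysl5 (0.0455) passing, which made 12 called in all, 8 of them lower. Calls were gained by Sema3c under 5 alternatives, Dpysl5 under 4, and Sema4d (stricter filter, 0.0074) and Sema4a (array weights, 0.0312) under 1 each. Leaving out 1 array gave 9 to 13 genes called (15 with all; 9 without control replicate 2), 5 to 7 lower (5 without control replicate 2 or Sfpq-/- replicate 1) and 4 to 7 higher (4 without control replicate 1 or 2). Against Sfpq+/- it gave 11 to 14 called, 9 to 10 lower and 1 to 4 higher (4 with all; 1 without Sfpq-/- replicate 1 or Sfpq+/- replicate 2, 2 without Sfpq-/- replicate 3 or Sfpq+/- replicate 1), and Xist as a covariate gave 2 higher. Partners called in Sfpq-/- against control numbered 6 with no filter and 4 with only the groups compared, against 11, and 4 to 12 with 1 array left out (7, 4 and 4 without control replicates 1, 2 and 3, 5 without Sfpq-/- replicate 1). Against Sfpq+/- they numbered 21 with array weights, against 10, and 5 to 12 with 1 array left out (5 without Sfpq-/- replicate 1 or Sfpq+/- replicate 1, 6 without Sfpq+/- replicate 2). With array weights, 4609 of all genes were called in Sfpq-/- against control, 1854 lower and 2755 higher, against 2040. The cause of these shifts was not tested. The replicate number as a block gave 17 family genes called in Sfpq-/- against control (15 without it), 15 against Sfpq+/- (14 without it) and 0 in Sfpq+/-. Whether equal numbers mark paired samples is not stated. For replicates 1, 2 and 3, deviations of same-numbered arrays from their group means correlated at 0.28, 0.01 and 0.57 between Sfpq-/- and control. The values were 0.25, 0.05 and 0.31 between Sfpq+/- and control, and -0.06, 0.04 and 0.30 between Sfpq-/- and Sfpq+/-. Over all genes the block gave 2469 called in Sfpq-/- against control, against 2040 without it. A source shared by same-numbered arrays was not tested. In Sfpq+/- against control 0 family genes were called under every alternative.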
